A study of Mus musculus with 6 samples.

Results

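Troponin is the calcium switch of striated muscle, a complex of troponin C, I and T that sits on the actin and tropomyosin of the thin filament. Troponin C binds calcium, troponin I holds the filament off in the resting state, and troponin T anchors the complex to tropomyosin. Each subunit is encoded by separate genes for fast, slow and cardiac muscle, with the slow and cardiac forms of troponin C shared, and embryonic skeletal muscle is known to express the cardiac troponin T gene as well. All 8 genes were taken by name: Tnnc1 (slow and cardiac troponin C), Tnnc2 (fast troponin C), Tnni1 (slow troponin I), Tnni2 (fast troponin I), Tnni3 (cardiac troponin I), Tnnt1 (slow troponin T), Tnnt2 (cardiac troponin T) and Tnnt3 (fast troponin T). They are 8 genes beside 23231 with a count in at least 1 library, and 7 of the 8 had a count.

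The 6 libraries were polyA RNA-Seq of C2C12 cells, mouse myoblasts that form myotubes in low serum, on day 5 of differentiation in 2% horse serum. Both groups had received lentivirus at 100 infectious units per cell and had been selected in 2 µg/ml puromycin. Both expressed dCas9-KRAB, a cutting-dead Cas9 fused to a repressor domain. The 3 dCas9-KRAB libraries, the controls, carried no enhancer guide, and the 3 dCas9-KRAB-En5 libraries carried 2 guides against Myog-En5, an enhancer of Myog, which encodes the transcription factor myogenin. Cells before differentiation and cells without virus were not analysed here, so the comparison shows a difference on 1 day and not a course.

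The guide targets place the perturbation relative to the troponin genes, and are given below in GRCm38 with the PAM, the bases next to the target that Cas9 requires, in capitals.
Myog-En5-sgRNA1, chr1:134283252-134283274, plus strand: gaaggggttactgtcggcagAGG
Myog-En5-sgRNA2, chr1:134283558-134283580, minus strand: gaccggaagattgaaccactGGG
The troponin genes Tnni1 and Tnnt2 lie on the same chromosome, 1489.4 and 1546.4 kb from the start of Myog, and the other 6 lie on chromosomes 2, 7 and 14.

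Total counts ranged from 31831093 to 73988425 per library. The targeted gene followed the labels: Myog had 43211, 68488 and 74845 counts in the dCas9-KRAB libraries, against 12, 0 and 0. The replicate 3 library of dCas9-KRAB-En5 stood apart, with the fewest genes listed (13991, against 17084 to 19395 in the others) and the largest share of counts in ribosomal protein genes (25.7%, against 10.6% to 19.2%). Of 8 skeletal muscle markers, all 8 reached 10 TPM in each dCas9-KRAB library and at most 1 did in any dCas9-KRAB-En5 library. Their summed level was 13732 to 16576 TPM in dCas9-KRAB, against 10.7 to 18.7 TPM in dCas9-KRAB-En5. Myod1, which marks C2C12 cells as myoblasts, was at 33.8, 111 and 79.2 TPM against 0.0761, 0.0317 and 0 TPM, so the labelled cell type was not visible in the second group by its defining markers. Macrophage markers were present in both groups, and 11 of 12 had counts. From 7 to 8 reached 10 TPM in the dCas9-KRAB libraries, and from 8 to 9 did in the dCas9-KRAB-En5 libraries. Their summed level was 3702 to 4420 TPM in dCas9-KRAB, against 5275 to 8192 TPM in dCas9-KRAB-En5, with Mrc1 at or under 3 counts in every library. Of 11 tested, 1 (Adgre1) was called higher and 0 lower by the edgeR test below. Over all genes tested, 1.52% were called higher and 4.67% lower. The median log2 fold change of these markers was 0.56, beside 0.08 over all genes tested. The sums leaned on single genes: Cd14 was at 3398, 1369 and 525 TPM in dCas9-KRAB-En5, against 601, 604 and 699 TPM. Fibroblast markers summed to 70.3 to 206 TPM against 20.9 to 39.2 TPM, with Thy1 at or under 3 counts. Smooth muscle markers summed to 167 to 362 TPM against 5.19 to 10.9 TPM, with Myocd and Lmod1 at or under 3 counts. Most of the dCas9-KRAB sum was Acta2, a gene also listed below with the thin filament. It was at 160, 339 and 263 TPM, against 1.93, 0.806 and 8.79 TPM in dCas9-KRAB-En5. The smooth muscle markers Myh11, Cnn1 and Tagln had counts too low to be tested. In bulk RNA, fewer muscle cells and less troponin RNA per cell cannot be told apart, and the part of these marker differences in the results that follow was not tested.

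Of the 8 troponin genes, 6 were lower in dCas9-KRAB-En5 by edgeR's quasi-likelihood test, where a call needed adjusted p no higher than 0.01 and a log2 fold change of 1 or more in size. These were Tnnc1, Tnni1, Tnni2, Tnnt1, Tnnt2 and Tnnt3. Among the 14378 genes tested, 4.67% were called lower and 1.52% higher. The count was also 6 with DESeq2, which called 7.90% of genes lower, and with a replicate block, which called 6.79% lower. Tnni3 was tested and not called, and Tnnc2 had no count in any library and was not tested. The median log2 fold change of the 7 tested troponin genes was -8.09, beside 0.08 over all genes tested. The TPM of the groups did not overlap for any of the 7, against 19.7% of all tested genes whose dCas9-KRAB-En5 libraries all lay below the dCas9-KRAB libraries. The size of the drop differed widely between members, and the plot of fold changes sets them among all genes.

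**Figure D1:**
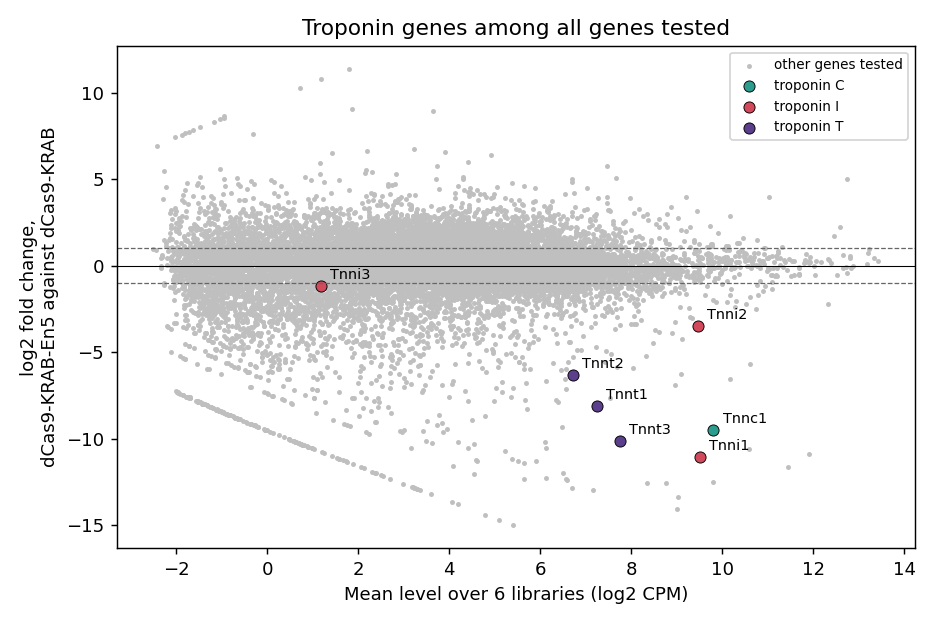
Each point is a tested gene, with its mean level over the 6 libraries as log2 CPM on the x axis and edgeR's log2 fold change of dCas9-KRAB-En5 against dCas9-KRAB on the y axis, and dashed lines at a log2 fold change of 1 in either direction. Tnnc1, Tnni1, Tnnt1, Tnnt2 and Tnnt3 lie between -6.30 and -11.04, Tnni2 lies at -3.48, and Tnni3 lies at -1.19.

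Troponin C could be read for Tnnc1 (chr14:31208312-31211729, plus strand). In dCas9-KRAB it was the most abundant troponin transcript with counts, at 3173, 2661 and 2514 TPM. In dCas9-KRAB-En5 it was at 4.26, 4.14 and 3.78 TPM, from 94, 73 and 90 counts. These libraries were close to each other, and 0.146% of the control mean was left. The log2 fold change was -9.48 (SE 0.72, adjusted p = 1.82e-05, edgeR).

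The fast troponin C gene, Tnnc2 (chr2:164777161-164779967, minus strand), was listed in none of the 6 libraries and was taken as 0. Of its 800 exonic bases, 592 (74.0%) are also exon of Ube2c, a cell-cycle ubiquitin-conjugating enzyme gene on the opposite strand, and the strand setting of the counting and its handling of reads in overlapping genes are not given in the sources used here. A count of 0 allows up to 3 counts, or 0.0405 to 0.0942 CPM depending on the library, where reads could be assigned. Ube2c was counted in every library and was not called (log2 fold change -0.07, SE 0.45, adjusted p = 0.931, edgeR). The level of fast troponin C could therefore not be read from these counts, and no fast-to-slow ratio is given for troponin C.

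Troponin I showed the widest spread among forms. The slow gene, Tnni1 (chr1:135779434-135810989, plus strand), was at 565, 721 and 692 TPM in dCas9-KRAB. The dCas9-KRAB-En5 libraries had 0.354, 0.180 and 0.364 TPM, from 27, 11 and 30 counts, which left 0.0454% of the control mean. This was the smallest share left by any troponin gene with counts, and the log2 fold change was -11.04 (SE 0.87, adjusted p = 1.91e-05, edgeR).

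The fast gene, Tnni2 (chr7:142441808-142444410, plus strand), was at 1428, 1461 and 1354 TPM in dCas9-KRAB. The 3 dCas9-KRAB-En5 libraries kept 89.5, 64.0 and 171 TPM, from 2839, 1624 and 5873 counts. The groups did not overlap, but 6.33%, 4.52% and 12.1% of the control mean was left in the 3 libraries, more than for any other called member. The highest of the 3 was replicate 3, the library with the largest ribosomal protein share. The log2 fold change was -3.48 (SE 0.73, adjusted p = 0.00839, edgeR). This call was close to the threshold and depended on the setting. It was lost with DESeq2's size factors (adjusted p = 0.0129), with upper-quartile normalization (adjusted p = 0.0106) and when any library other than dCas9-KRAB-En5 replicate 3 was left out (adjusted p 0.0156 to 0.0568), and without replicate 3 it was -4.81 (adjusted p = 3.70e-05). Over 16 alternatives the log2 fold change stayed between -4.81 and -3.06, with adjusted p from 3.73e-06 to 0.0568.

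The cardiac gene, Tnni3 (chr7:4518305-4524229, minus strand), was low in both groups. It was at 2.29, 2.69 and 2.31 TPM in dCas9-KRAB, from 128, 208 and 213 counts. The other group had 1.19, 1.80 and 0.720 TPM, from 52, 63 and 34 counts, so that 50.9% of the control mean was left. Its log2 fold change was -1.19 (SE 0.58) and did not pass the test (adjusted p = 0.180, edgeR), nor did it in any of 16 alternatives, where adjusted p ran from 0.0568 to 0.464. Of its exonic bases, 86 (4.17%) are shared on the same strand with Dnaaf3, a gene for assembly of ciliary motors, which had a log2 fold change of 0.06 (SE 0.53, adjusted p = 0.948, edgeR).

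Troponin T fell in all 3 forms. The slow gene, Tnnt1 (chr7:4504570-4516382, minus strand), was at 165, 293 and 220 TPM in dCas9-KRAB, against at 1.14, 0.803 and 0.694 TPM in dCas9-KRAB-En5. The share left was 0.389%, and the log2 fold change was -8.09 (SE 0.63, adjusted p = 1.86e-05, edgeR). The fast gene, Tnnt3 (chr7:142498836-142516009, plus strand), was at 394, 579 and 377 TPM in dCas9-KRAB. In dCas9-KRAB-En5 it was at 0.984, 0.633 and 0 TPM, from 33, 17 and 0 counts, and the library at 0 was replicate 3, the library in which Tnni2 was highest. The share left was 0.120%, and the log2 fold change was -10.11 (SE 1.04, adjusted p = 0.000103, edgeR).

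The cardiac gene, Tnnt2 (chr1:135836354-135852260, plus strand), was the least abundant troponin T gene in dCas9-KRAB, at 45.3, 50.0 and 36.6 TPM. Under the En5 guides it was at 0.785, 1.10 and 0.237 TPM, from 129, 145 and 42 counts, and 1.61% of the control mean was left. The log2 fold change was -6.30 (SE 0.54, adjusted p = 3.37e-05, edgeR). Of 12 cardiomyocyte markers, 7 had counts and 6 were at or under 3 counts in every library (Myl7, Nppa, Tbx5, Tbx20, Hand2 and Corin). The markers summed to 7.47 to 16.2 TPM in dCas9-KRAB, against 1.23 to 2.37 TPM in dCas9-KRAB-En5. Most of each sum was 1 gene, Sbk2, at 6.03, 12.8 and 9.39 TPM against 1.78, 0.993 and 1.17 TPM. The markers Myh6, Nppb and Nkx2-5 had counts too low to be tested.

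**Figure D2:**
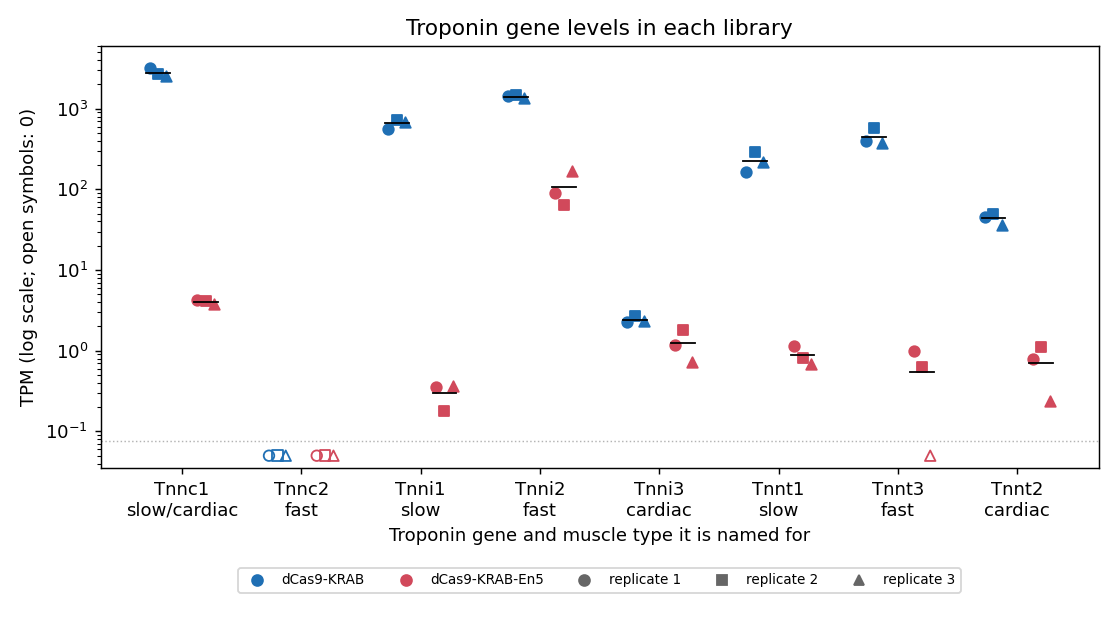
TPM on a log axis for each of the 8 troponin genes, with 1 symbol per library, colour for the group, shape for the replicate number, a line at the group mean and open symbols for a TPM of 0. All dCas9-KRAB-En5 symbols of the 7 genes with counts lie below all dCas9-KRAB symbols, the distance is smallest for Tnni3 and Tnni2, and Tnnc2 is at 0 throughout.

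The order of the genes differed between the groups. In dCas9-KRAB the order by mean TPM was Tnnc1, Tnni2, Tnni1, Tnnt3, Tnnt1, Tnnt2 and Tnni3, and of these neighbours only Tnni1 and Tnnt3 overlapped in the ranges of their libraries. In dCas9-KRAB-En5 Tnni2 came first, at a mean of 108 TPM ± 56.1 (SD, n = 3), and Tnnc1 was next, at 4.06 TPM ± 0.25 (SD, n = 3). The other genes with counts, Tnni3, Tnnt1, Tnnt2, Tnnt3 and Tnni1, had means from 1.24 down to 0.299 TPM, and each overlapped the next in its range. The shares left, on the same TPM scale, are set side by side in the plot of the level left in each library.

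**Figure D3:**
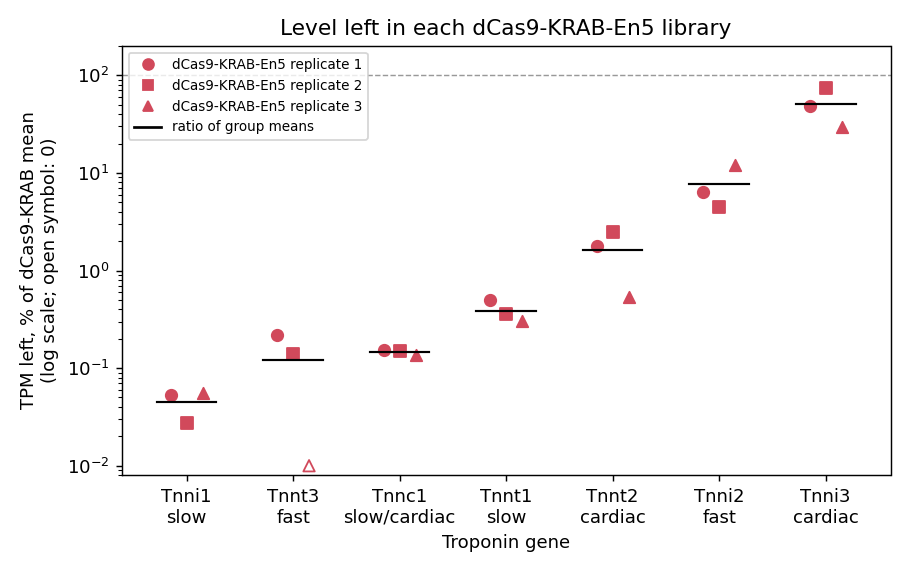
TPM in each dCas9-KRAB-En5 library as a percent of the dCas9-KRAB mean, on a log axis, for the 7 troponin genes with counts, with a black line at the ratio of the group means, a dashed line at 100% and an open symbol for 0. The ratio runs from 0.0454% for Tnni1 to 7.66% for Tnni2 and 50.9% for Tnni3, and the fast genes Tnni2 and Tnnt3 lie far apart.

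Fast and slow forms did not divide by muscle type. The fast genes left 7.66% (Tnni2) and 0.120% (Tnnt3) of their control means, the slow genes 0.0454% (Tnni1), 0.389% (Tnnt1) and 0.146% (Tnnc1), and the cardiac genes 50.9% (Tnni3) and 1.61% (Tnnt2). The ratio of fast to slow troponin I within a library, taken as (TPM + 0.1) of Tnni2 over Tnni1, was 2.53, 2.03 and 1.96 in dCas9-KRAB, against 197, 229 and 370 in dCas9-KRAB-En5. Its log2 was 6.89 higher in dCas9-KRAB-En5, with means of 8.0 ± 0.47 against 1.11 ± 0.20 (SD, n = 3 each, exact permutation p = 0.1, two-sided). For troponin T the ratio moved the other way: Tnnt3 over Tnnt1 was 2.39, 1.98 and 1.71 in dCas9-KRAB, against 0.878, 0.812 and 0.126 in dCas9-KRAB-En5. The log2 of that ratio fell by 2.16, with means of 1.01 ± 0.24 against -1.16 ± 1.59 (SD, n = 3 each, exact permutation p = 0.1, two-sided), and without dCas9-KRAB-En5 replicate 3, whose Tnnt3 was at 0, it fell by 1.25. The size also depended on the pseudocount, with a log2 difference of -1.34 at TPM + 1 and -3.23 at TPM + 0.01. The cardiac over slow troponin T ratio, Tnnt2 over Tnnt1, was 0.275, 0.171 and 0.167 against 0.717, 1.33 and 0.424, a log2 difference of 1.90 with means of -2.33 ± 0.41 and -0.43 ± 0.83 (SD, n = 3 each, exact permutation p = 0.1, two-sided). In each of the 3 ratios the groups did not overlap. A p of 0.1 is the smallest that 3 libraries against 3 can give, and it was also 0.1 after Benjamini-Hochberg adjustment over the 3 ratios.

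The make-up of troponin I and troponin T differed between the groups. Of the summed troponin I TPM, Tnni2 held 71.6%, 66.9% and 66.1% in dCas9-KRAB, against 98.3%, 97.0% and 99.4% in dCas9-KRAB-En5, and Tnni1 held 28.3%, 33.0% and 33.8% against 0.389%, 0.273% and 0.211%. Of the summed troponin T TPM, Tnnt3 held 65.2%, 62.8% and 59.5% in dCas9-KRAB, against 33.9%, 24.9% and 0% in dCas9-KRAB-En5. These shares rest on sums of 604, 921 and 633 TPM in dCas9-KRAB but of 2.90, 2.54 and 0.931 TPM in dCas9-KRAB-En5.

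**Figure D4:**
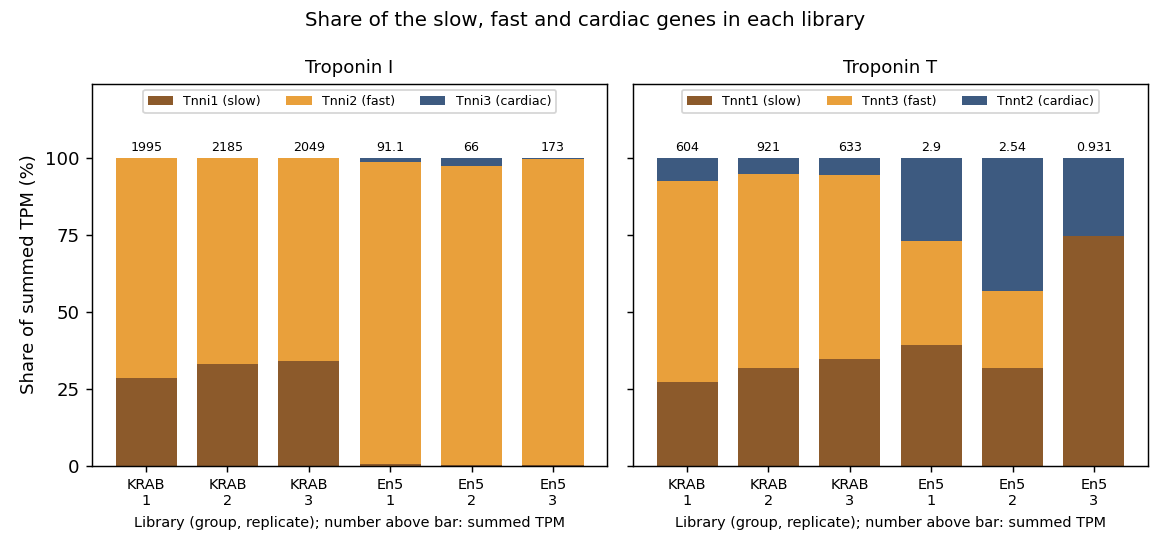
Share of the summed TPM of troponin I (left) and troponin T (right) held by the slow, fast and cardiac gene in each library, with the summed TPM above each bar, where KRAB stands for dCas9-KRAB and En5 for dCas9-KRAB-En5. Tnni2 fills 97.0% to 99.4% of troponin I in the dCas9-KRAB-En5 libraries, and Tnnt3 shrinks from at least 59.5% to at most 33.9% of troponin T.

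The 3 subunits bind in equal numbers in the troponin complex, and their transcripts were compared as ratios within a library. Troponin C stands here for Tnnc1, since Tnnc2, whose level could not be read, enters every sum as 0. The summed TPM of troponin I over the TPM of Tnnc1 was 0.629, 0.821 and 0.815 in dCas9-KRAB. In dCas9-KRAB-En5 it was 21.4, 15.9 and 45.7. Tnnc1 over the summed TPM of troponin T was 5.26, 2.89 and 3.97 against 1.47, 1.63 and 4.06, and here the groups overlapped. With Tnnc2 as 0, Tnni2 alone held 24.7% to 26.1% of all troponin TPM in dCas9-KRAB, against 88.1% to 96.7% in dCas9-KRAB-En5. The troponin genes together took 0.515% to 0.590% of all counts in dCas9-KRAB, against 0.00555% to 0.0192% in dCas9-KRAB-En5.

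In the mouse genome 6 of the 8 genes lie as pairs of a troponin I and a troponin T gene, and members of a pair differed in the size of their drop. Tnni2 and Tnnt3 are 54.4 kb apart on chromosome 7, both on the plus strand, and had log2 fold changes of -3.48 and -10.11. Tnni3 and Tnnt1 are 1.9 kb apart on chromosome 7, both on the minus strand, and had log2 fold changes of -1.19 and -8.09. Tnni1 and Tnnt2 are 25.4 kb apart on chromosome 1, both on the plus strand, and had log2 fold changes of -11.04 and -6.30. So the troponin I gene was the less reduced member in 2 pairs and the more reduced in the other. The difference within a pair was not tested.

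The bases before the start site are shown for the most and the least reduced gene with an entry, Tnni1 and Tnni3, for the neighbour of Tnni3, and for Tnnc1 and Tnnt2. RefSeq entries on GRCm38.p6 were matched for 6 of the 8 genes, Tnnc1, Tnnc2, Tnni1, Tnni3, Tnnt1 and Tnnt2. The sequences are the parts of the 250 bases upstream of the RefSeq start that lie outside GENCODE exons, and the Tnni1 window lies inside the longer GENCODE gene. Capitals mark the E-box CANNTG, the site type that myogenic factors such as MyoD and myogenin bind, and CATTCC (MCAT, bound by TEAD factors), on either strand.
Tnnc1, chr14:31208062-31208311, plus strand: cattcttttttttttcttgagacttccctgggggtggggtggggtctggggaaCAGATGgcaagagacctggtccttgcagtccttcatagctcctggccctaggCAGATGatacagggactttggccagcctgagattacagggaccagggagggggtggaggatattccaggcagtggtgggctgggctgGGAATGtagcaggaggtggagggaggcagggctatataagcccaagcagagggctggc
Tnni1, chr1:135799171-135799401, plus strand: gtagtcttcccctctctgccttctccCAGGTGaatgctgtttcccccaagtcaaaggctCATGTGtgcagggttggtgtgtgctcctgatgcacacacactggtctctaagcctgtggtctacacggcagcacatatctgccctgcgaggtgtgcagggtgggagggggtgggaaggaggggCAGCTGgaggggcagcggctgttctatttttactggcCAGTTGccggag
Tnni3, chr7:4522529-4522694, minus strand: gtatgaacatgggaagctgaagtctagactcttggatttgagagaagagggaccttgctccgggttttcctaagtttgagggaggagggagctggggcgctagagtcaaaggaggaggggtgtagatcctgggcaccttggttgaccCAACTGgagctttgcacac
Tnnt1, chr7:4516005-4516225, minus strand: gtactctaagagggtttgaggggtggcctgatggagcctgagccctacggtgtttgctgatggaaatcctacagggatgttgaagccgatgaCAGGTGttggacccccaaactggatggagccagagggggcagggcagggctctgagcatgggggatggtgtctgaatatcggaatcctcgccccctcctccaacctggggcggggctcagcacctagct
Tnnt2, chr1:135836084-135836333, plus strand: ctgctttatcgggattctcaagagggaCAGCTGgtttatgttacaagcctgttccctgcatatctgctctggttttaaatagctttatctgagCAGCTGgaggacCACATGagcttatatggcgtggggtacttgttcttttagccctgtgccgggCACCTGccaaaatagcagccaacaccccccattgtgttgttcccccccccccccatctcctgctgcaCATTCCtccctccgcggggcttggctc
Within the whole 250 bases CANNTG was found for 6 of the 6 matched genes, and it is found in 66.2% of all 32851 promoter windows of that length. The narrower E-box CAGCTG, one case of CANNTG, was found for 2 (Tnni1 and Tnnt2), beside 13.0% of all windows. CATTCC was found for 2 (Tnnc1 and Tnnt2), beside 12.6%, and TATAAA for 1 (Tnnt1), beside 12.4%. All motifs were searched on both strands. A match is a description of letters, and Tnni3, the gene that was not called, also holds an E-box.

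The thin filament on which troponin sits was lower in part. Of 19 partner genes (actins, tropomyosins, nebulin and its relative Nebl, leiomodins, tropomodulins and the cofilin Cfl2), 15 were tested, 9 were called lower and 0 higher, with a median log2 fold change of -4.36. Over all genes tested, 4.67% were called lower and 1.52% higher, and the median was 0.08. Acta1, skeletal muscle actin, was at 1759, 4803 and 3450 TPM against 5.81, 2.65 and 0.228 TPM, a log2 fold change of -10.58 (adjusted p = 9.70e-05, edgeR). Tpm2, a striated muscle tropomyosin, had a log2 fold change of -6.90 (adjusted p = 3.96e-05, edgeR). The cytoskeletal actins did not pass, at -0.88 for Actb (adjusted p = 0.239, edgeR) and -0.60 for Actg1 (adjusted p = 0.425, edgeR), and Tpm3, which makes both slow muscle and cytoskeletal tropomyosin, was at 0.01 (adjusted p = 0.991, edgeR). Without dCas9-KRAB replicate 1 the list had 5 genes called lower.

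The calcium that troponin C binds is released and taken back by the sarcoplasmic reticulum. Of 21 genes of calcium release and uptake, 15 were tested, 10 were called lower and 0 higher, with a median of -5.63. Over all genes tested, 4.67% were called lower and 1.52% higher. Jsrp1, which encodes a junctional protein of the reticulum, had a log2 fold change of -8.09 (adjusted p = 1.82e-05, edgeR), and Cacng1, a subunit of the muscle calcium channel, one of -7.11 (adjusted p = 0.000281, edgeR). Casq2, a calcium store protein of slow and cardiac muscle, had 23812 counts in dCas9-KRAB, against 3 in dCas9-KRAB-En5 over the 3 libraries of each group, a ratio scaled to total counts of 4707 (95% interval 1610 to 22826, counting error only). Atp2a2, the slow and cardiac calcium pump that also serves non-muscle cells, was at 14.9, 30.4 and 14.9 TPM against 147, 203 and 15.7 TPM, with replicate 3 inside the range of the controls, and did not pass (log2 fold change 2.17, adjusted p = 0.0332, edgeR). In this list 1 gene was called higher under each of DESeq2, no low-count filter and the fit without dCas9-KRAB-En5 replicate 3. Ryr1, the release channel, was at -1.75 and did not pass (adjusted p = 0.0379, edgeR), and neither did Atp2a3, a calcium pump of non-muscle cells, at 1.26 (adjusted p = 0.157, edgeR). Without dCas9-KRAB replicate 1 the list had 5 genes called lower.

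Fibre-type genes were also lower on both sides, in lists that share members with those above. The fast genes Atp2a1 and Casq1 and the slow genes Casq2 and Atp2a2 are also calcium genes. Tpm3, a slow gene here, is also in the thin filament list, and Atp2a2 and Tpm3 did not pass. Of 11 fast fibre genes 8 were tested and 7 called lower (median -7.09), and of 11 slow fibre genes 8 were tested and 5 called lower (median -6.59), with 0 higher in either. Over all genes tested, 4.67% were called lower and 1.52% higher. Mylpf, fast myosin light chain, was at 9994, 7689 and 7623 TPM against 3.96, 2.44 and 2.18 TPM, a log2 fold change of -11.65 (adjusted p = 1.82e-05, edgeR). Myl1, another fast light chain, and Actn3, fast alpha-actinin, had log2 fold changes of -12.54 and -7.65 (adjusted p = 8.74e-05 and 0.000239, edgeR). The least reduced called fast genes were Mybpc2, fast myosin binding protein, at -5.96 (adjusted p = 0.00375, edgeR) and Casq1, the fast calcium store protein, at -5.29 (adjusted p = 0.00713, edgeR). On the slow side, Myl6b, a slow myosin light chain, had a log2 fold change of -3.98 (adjusted p = 0.000670, edgeR), and Myh7b, a slow myosin heavy chain, was at 1.33 and did not pass (adjusted p = 0.283, edgeR). In the slow list 1 gene was called higher under each of DESeq2, no low-count filter and the fit without dCas9-KRAB-En5 replicate 3. Mb, myoglobin, was at 105, 81.8 and 85.7 TPM against 0 in all 3 dCas9-KRAB-En5 libraries, at least 2875-fold lower with 3 counts over the group as the floor. The fast gene that did not pass was Myoz1, a Z-disc protein gene, at 9.23, 10.4 and 13.6 TPM against 1.60, 2.96 and 4.43 TPM (log2 fold change -1.73, adjusted p = 0.0944, edgeR). The count of fast fibre genes was 4 when any 1 of the dCas9-KRAB libraries was left out.

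Of 6 embryonic and perinatal muscle genes, all 6 were tested and 5 were called lower, with a median of -9.58 (-9.43 with the gene at 0 in dCas9-KRAB-En5 at its bound). Over all genes tested, 4.67% were called lower. Actc1 is also in the thin filament list above. Myl4, embryonic and atrial myosin light chain, was at 658, 625 and 576 TPM against 0.316, 0.102 and 0 TPM, a log2 fold change of -12.50 (adjusted p = 5.47e-05, edgeR). Actc1, cardiac actin, which immature skeletal muscle also makes, was at 57.2, 191 and 121 TPM against 0.0292, 0.0729 and 0.0540 TPM (log2 fold change -11.27, adjusted p = 1.82e-05, edgeR). Chrng, the fetal subunit of the acetylcholine receptor, had 38934 counts in dCas9-KRAB against 3, a ratio scaled to total counts of 7696 (95% interval 2633 to 37321, counting error only). Myh3, embryonic myosin, and Ncam1, an adhesion gene of myoblasts, had log2 fold changes of -7.59 and -4.18 (adjusted p = 2.14e-05 and 0.000527, edgeR). Myh8, perinatal myosin, had 113 counts in dCas9-KRAB against 0 and did not pass (adjusted p = 0.0161, edgeR). Among myogenic regulators, Mef2d, the most abundant of its family here, had a log2 fold change of 1.02 and did not pass (adjusted p = 0.191, edgeR), and neither did Mef2a at 0.99 (adjusted p = 0.256, edgeR) or Srf at 0.48 (adjusted p = 0.538, edgeR).

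Genes next to the troponin genes mostly did not pass. Of 61 other genes within 100 kb of a troponin gene, 32 were tested, 3 were called lower and 0 higher, beside 4.67% of all genes tested called lower, and the median log2 fold change was -0.18. The troponin pair on chromosome 7 that holds Tnni2 and Tnnt3 had 2 of the 3. H19, an imprinted noncoding RNA gene 59.5 kb from Tnnt3, was at 3344, 6632 and 5510 TPM against 4.74, 2.04 and 2.02 TPM, a log2 fold change of -10.89 (SE 0.82, adjusted p = 1.82e-05, edgeR). Nctc1, a noncoding gene 28.6 kb from Tnnt3, had 210 counts in dCas9-KRAB, against 0 in dCas9-KRAB-En5, at least 41.5-fold lower with 3 counts over the group as the floor. The genes between and beside them did not pass: Syt8, 1.4 kb from Tnni2, was at -0.26 (adjusted p = 0.773, edgeR), Lsp1, a leukocyte gene 4.0 kb from Tnnt3, was at -0.77 (adjusted p = 0.243, edgeR), and Mrpl23, a mitochondrial ribosome gene, was at -0.29 (adjusted p = 0.754, edgeR). The third was Pltp, a phospholipid transfer gene 59.6 kb from Tnnc2, at -2.91 (SE 0.53, adjusted p = 0.00458, edgeR). Beside Tnnt1 and Tnni3, Ppp1r12c was at 0.86 (adjusted p = 0.245, edgeR), and beside Tnni1 and Tnnt2, Phlda3 was at -0.73 and Pkp1 at -0.84 (adjusted p = 0.462 and 0.253, edgeR). Lad1, between Tnni1 and Tnnt2 and 3.0 kb from Tnnt2, was not tested. It had 75 counts in dCas9-KRAB against 0 in dCas9-KRAB-En5. The count of genes called lower was 8 without dCas9-KRAB-En5 replicate 3 and 1 when any other library was left out. The share of all genes called in those fits is not given here.

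**Figure D5:**
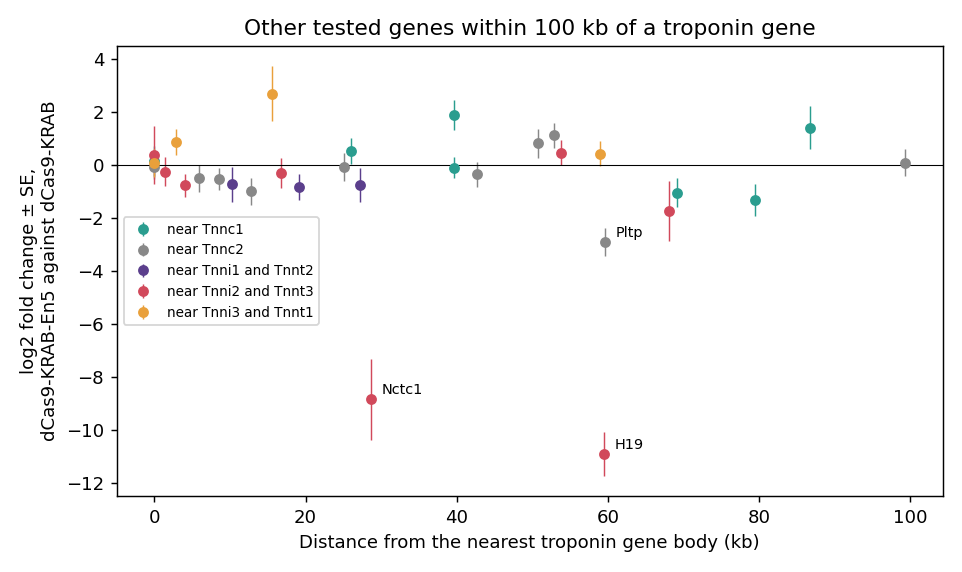
edgeR's log2 fold change with its SE for the 32 tested genes within 100 kb of a troponin gene, against the distance from the nearest troponin gene body in kb, coloured by locus. H19, Nctc1 and Pltp are named as the genes called, and Nctc1, at 0 in all dCas9-KRAB-En5 libraries, has a plotted value that depends on the fit.

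The genes whose profile over the 6 libraries lay nearest to a troponin gene, by Euclidean distance of centred log2 CPM, were named for the members with the largest and smallest drop. For Tnni1 they were H19 (distance 1.03), Mylpf (1.14) and Mb (1.65). Mb had no counts in dCas9-KRAB-En5, so its distance depends on the prior count of 2 used for log2 CPM. For Tnni3 they were Nutf2-ps1 (0.166), Rbbp4 (0.210) and Creld2 (0.216). For Tnni2, added after its values were seen, they were Vamp5 (0.354), Tead2 (0.512) and Gm8885 (0.563).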

How the data were processed

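The authors aligned 150-base paired reads with HISAT2 2.2.1 to GRCm38 and counted them per gene with featureCounts; strand setting and annotation release are not given in the sources used here. The deposited files hold raw counts and TPM, which the authors made from counts and gene length. Unlisted genes were taken as 0. Gene length implied by both columns lay within 1% of GENCODE exons for 98.7% of 7964 genes.

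Counts were tested with edgeR 4.0.16 (quasi-likelihood, TMM, filterByExpr with a minimum count of 10 and total of 15, condition alone, R 4.3.3), with Benjamini-Hochberg adjustment over 14378 genes and cutoffs of 0.01 and 1. The script was tested on simulated data. Alternatives used DESeq2 1.42.0, limma 3.58.1 and other normalizations, filters and replicates. Ratios used TPM + 0.1 and an exact permutation test (scipy 1.17.1). Named genes were the troponins, Myog, the 3 most abundant and 3 least changed of each list, those within 100 kb, and the nearest profiles (prior count 2).

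The count over the list of myogenic regulators is not reported here. Members and lists were chosen with earlier results of these data known. The labels do not state separate cultures, so p-values measure the spread between these samples, which may be technical. Same-numbered libraries of the groups deviated together (r = 0.262, 0.214 and 0.290, against -0.340 to -0.0508 for different numbers). Deviations were taken from each group's own mean, so positive values for the same numbers require negative ones among the others. A pairing of cultures was not tested, and this one comes from the data, not from the labels.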

Additional observations from a re-analysis of the deposited data

How the results depend on the processing

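The number of troponin genes called lower was 6 and ranged from 5 to 6 over the other settings, including each library left out in turn. The gene lost was Tnni2, except with at least 10 counts required in every library, where Tnnt3 was not tested. With the replicate block it was 6, Tnni2 was at -4.00 (adjusted p = 0.000308) and Tnni3 at -1.20 (adjusted p = 0.190), and the block changed no call of a troponin gene. Adjusted p stayed at most 0.00543 for Tnnc1, Tnni1, Tnnt1, Tnnt2 and Tnnt3 under every setting that tested them. DESeq2 called 6. Leaving out each library moved the log2 ratio difference of troponin I between 6.62 and 7.08, of fast to slow troponin T between -2.65 and -1.25, and of cardiac to slow troponin T between 1.47 and 2.30, and all kept their direction with TPM + 1, TPM + 0.01 and counts + 0.5. In that order the differences were 5.17, 7.28 and 7.30 for troponin I, -1.34, -3.23 and -3.07 for fast to slow troponin T, and 2.14, 1.80 and 1.78 for cardiac to slow troponin T, against 6.89, -2.16 and 1.90 as reported. The troponin C ratio was not run, since Tnnc2 had no count. Counts of the lists and neighbours under the alternatives were added after the data were examined. Requiring at least 10 counts in every library leaves out genes near 0 in dCas9-KRAB-En5, so fewer were tested. There 3 of 9 thin filament, 5 of 8 calcium, 2 of 3 fast fibre, 1 of 4 slow fibre and 2 of 2 embryonic genes tested were called lower. The share of all genes called under this filter, or with a library left out, is not given here. The list and neighbour counts under those settings therefore cannot be set against a rate over all genes. Low counts limit the members in dCas9-KRAB-En5: those other than Tnni2 had 0 to 145 counts per library.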
